A study of Sus scrofa with 6 samples.

Results

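The genes described here are 54 genes of the DNA damage checkpoint, the p53 pathway, programmed cell death and DNA repair, measured in the renal medulla of pigs 24 hours after cardiopulmonary bypass (CPB). They were taken as a list of named genes, and their probe sets were found as those to which the array annotation gives 1 symbol that is on the list. The list gave 35 genes on 47 probe sets, out of 23999 probe sets on the array other than controls. The list was chosen with earlier results of these data known, so its shares beside those of all probe sets are descriptions. HUS1 differs further, since its probe set was also picked from the transcripts that the study had listed as changed on these same arrays. Its CPB and Sham values are therefore given as a description and without a test. Tissue came from 3 CPB pigs, which had 2.5 hours of bypass through a neck dissection, and from 3 Sham pigs, anaesthetised for 2.5 hours with the same dissection and heparin but no bypass. All 6 were adult female Large White-Landrace crossbred pigs (White-Landrace in the labels), and each gave RNA from snap-frozen blocks of outer medulla to its own Affymetrix GeneChip Porcine Genome Array, so n = 3 animals per group.

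Cells that meet broken DNA or a stalled replication fork load a ring-shaped clamp of HUS1, RAD1 and RAD9A onto the damaged site. This clamp helps the kinase ATR to activate the checkpoint kinase CHEK1, while the kinase ATM activates CHEK2. These kinases stabilise p53, which turns on genes that halt the cell cycle, such as CDKN1A and the GADD45 genes, and genes that open the mitochondrial path to apoptosis, such as BAX, BBC3 and PMAIP1. In the kidney this pathway is best known from the tubule epithelium, where p53 and its target genes rise in rodents after ischaemia or cisplatin. Gene levels in a piece of medulla are bulk levels, and fewer cells of a type and less RNA per cell cannot be told apart in them.

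Intensities are given on the linear scale, as the authors deposited them after RMA, and every test was run on their log2. The median intensity of the 6 arrays lay between 94.6 and 96.9. A difference is the mean log2 intensity in CPB minus that in Sham, with its standard error (SE) from limma, which moderates each probe set's variance by that of the others. The arrays differed widely in markers of tubule and other cells. Of 26 listed proximal tubule markers 17 were measured, and their summed intensity ranged between 9565 and 50021 in CPB and between 9052 and 41078 in Sham. The mean was higher in CPB for all 17 (median log2 difference 0.94), although none passed an unadjusted p of 0.05 from limma and the groups overlapped: CPB 2 and Sham 1 were low, and CPB 1, CPB 3 and Sham 2 were high. The 5 measured urothelium markers of 11 ranged between 638 and 2856 in CPB and between 472 and 3146 in Sham. The 5 measured collecting duct markers of 8 did not share an order of arrays. AQP3 ranged between 1080 and 5437 in CPB and between 1048 and 4831 in Sham, and like GATA3 was highest in CPB 2. HSD11B2 ranged between 920 and 1053 in CPB and between 638 and 1903 in Sham, and like SCNN1B was highest in Sham 2. SCNN1A was highest in CPB 3. AQP2, UMOD and SLC12A1 had no probe set with 1 symbol. No marker was at 0, and array intensities have no true 0.

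Apart from HUS1, which was picked on this contrast, nearly all genes of DNA damage signalling, p53 and cell death had differences between CPB and Sham medulla that were within their spread between animals. The median absolute log2 difference was 0.19 over the 47 probe sets and 0.13 over all probe sets. Of the 47 probe sets, 22 had a higher and 25 a lower mean in CPB, so 46.8% were higher, against 55.9% of all probe sets. On 1 probe set per gene, the brightest, 15 genes had a higher and 20 a lower mean, with a median log2 difference of -0.013, against 0.033 over all 6765 named genes. Of the 46 probe sets other than that of HUS1, the 95% interval of the difference included 0 for 45, the exception being the dimmer of the CHEK1 probe sets, which was lower in CPB. This 1 of 46 (2.17%) was the only one with an unadjusted p under 0.05 from limma, against 1.4% of all probe sets in either direction and 0.7% in the lower direction. None passed an adjusted p of 0.05 from limma, as for 0% of all probe sets, and the adjusted p lay between 0.995 and 0.999. At an unadjusted p under 0.05 together with a difference of at least 1.6-fold, the rule of the study, the count was 0 of the 46, and 0.304% of all probe sets passed. The 3 CPB and 3 Sham animals did not overlap on 4 of the 46 probe sets (8.70%), against 5.27% of all probe sets, and these were CHEK1 and DDB2 with CPB below Sham and both BCL2L1 probe sets with CPB above.

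The count of the 46 at an unadjusted p under 0.05 depended on the arrays included. Without Sham 2 it was 9, where 9.24% of all probe sets passed as well. It was 0 without CPB 1, CPB 3, Sham 1 or Sham 3, where between 0.675% and 0.829% of all probe sets passed. Without CPB 2 it was 1, DDB1, where 5.03% of all probe sets passed. With the mean of the proximal tubule markers as a covariate it was 4, namely CHEK1, GADD45A and CFLAR lower and BAK1 higher in CPB, against 2.53% of all probe sets. No adjusted p passed in any of these fits. Sham 2 was the Sham array highest in proximal tubule markers, and CPB 2 the CPB array lowest in them. Leaving out either array therefore also changed the balance of these markers between the groups. The part of the cell mix in the counts was not tested.

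**Figure D1:**
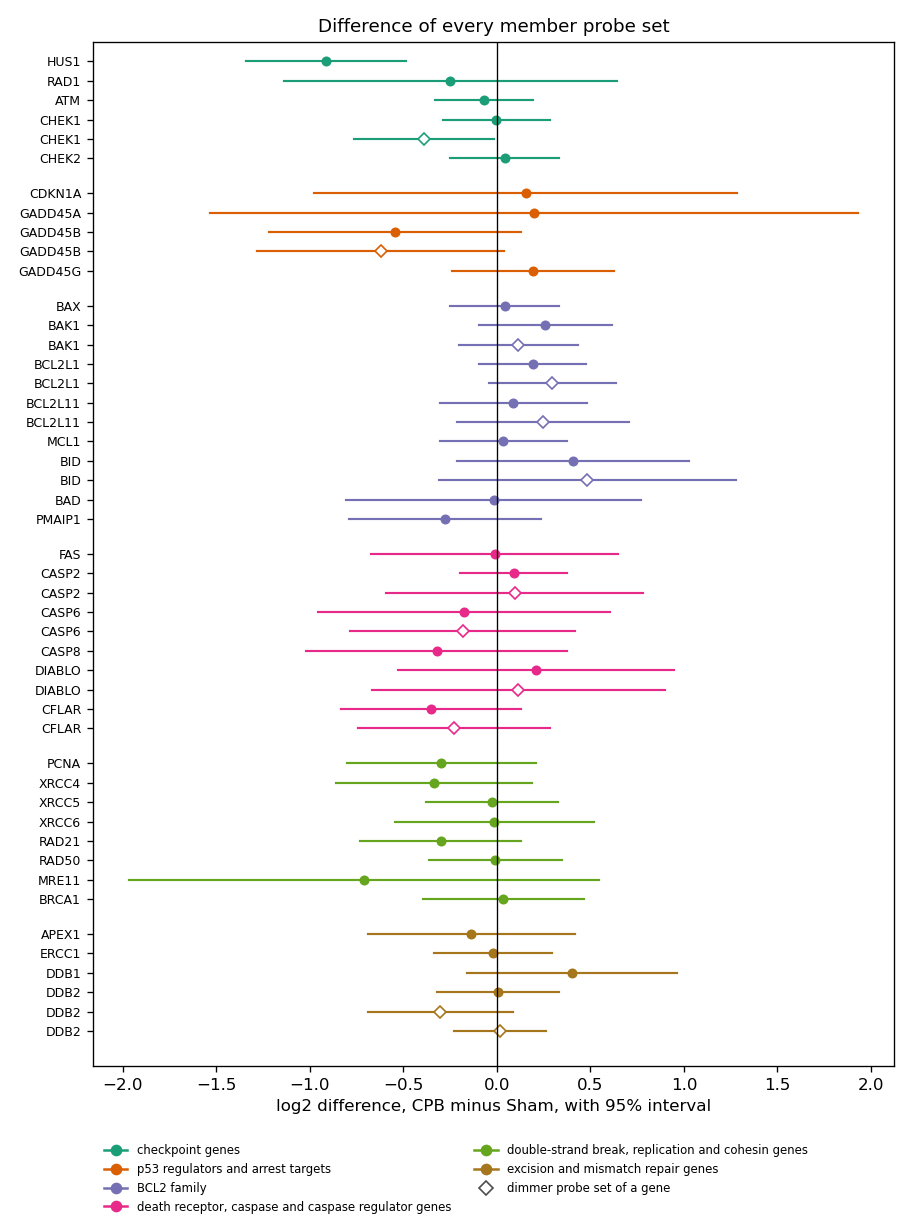
Log2 difference of each of the 47 probe sets, CPB minus Sham, on the horizontal axis, with its 95% interval from limma (n = 3 animals per group), coloured by role group, and open diamonds for the dimmer probe sets of a gene. HUS1 has the largest difference, the interval of the dimmer CHEK1 probe set lies below 0, and the widest interval, that of GADD45A, runs between -1.53 and 1.93.

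Of the checkpoint genes, 5 of 8 were measured, and HUS1 was lower in CPB while its clamp partner RAD1 and the kinases ATM and CHEK2 had overlapping groups. HUS1 had intensities of 147, 195 and 204 in CPB 1, 2 and 3, against 387, 329.9 and 304 in Sham 1, 2 and 3. All 3 CPB animals thus lay below the lowest Sham animal. The means were 182 ± 30.8 in CPB and 340.2 ± 42.7 in Sham (SD, n = 3 each), a log2 difference of -0.91 (SE 0.18), or 1.88-fold. Its array order differed from that of the proximal tubule markers, whose centred mean log2 intensity was 1.32, -1.59 and 1.55 in CPB 1, 2 and 3 and -2.15, 1.15 and -0.29 in Sham 1, 2 and 3. With that mean as a covariate the HUS1 difference was -0.86. No other cell type was used as a covariate, and the part of the cell mix in the HUS1 difference was not tested.

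RAD1, which closes the clamp ring with HUS1, had intensities of 97.3, 56.4 and 63.3 in CPB 1, 2 and 3, against 52.1, 92.0 and 122 in Sham 1, 2 and 3. The highest and the lowest array were both Sham, and the log2 difference of -0.25 (SE 0.36) had an interval of -1.14 to 0.64, so a change of the size of that of HUS1 lies inside it. ATM, the kinase that answers DNA breaks, was among the steadiest genes, at 220.0, 208 and 192 in CPB and 223, 216 and 212 in Sham. Its difference was -0.070 (SE 0.11, 95% interval -0.33 to 0.19), and that of CHEK2, which ATM activates, was 0.042 (SE 0.12, 95% interval -0.25 to 0.33). These intervals hold no difference of 1.6-fold or more in either direction.

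CHEK1, the kinase downstream of ATR, was read by a pair of dim probe sets that differed from each other. On the brighter one the intensities were 19.3, 18.3 and 20.6 in CPB 1, 2 and 3 and 19.2, 18.0 and 21.2 in Sham 1, 2 and 3, with a difference of -0.0038 (SE 0.12). On the dimmer one they were 12.9, 13.9 and 12.8 in CPB 1, 2 and 3, against 21.0, 15.2 and 16.2 in Sham 1, 2 and 3. There the CPB animals lay below the Sham animals by -0.39 (SE 0.15), with an unadjusted p = 0.044 and an adjusted p = 0.995 from limma. The unadjusted p was above 0.05 without any array other than Sham 2, with values between 0.0611 and 0.112, and the difference was -0.25 without Sham 1. Both probe sets lie in the dimmest 13% of the array, and the files do not give their signal over background.

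**Figure D2:**
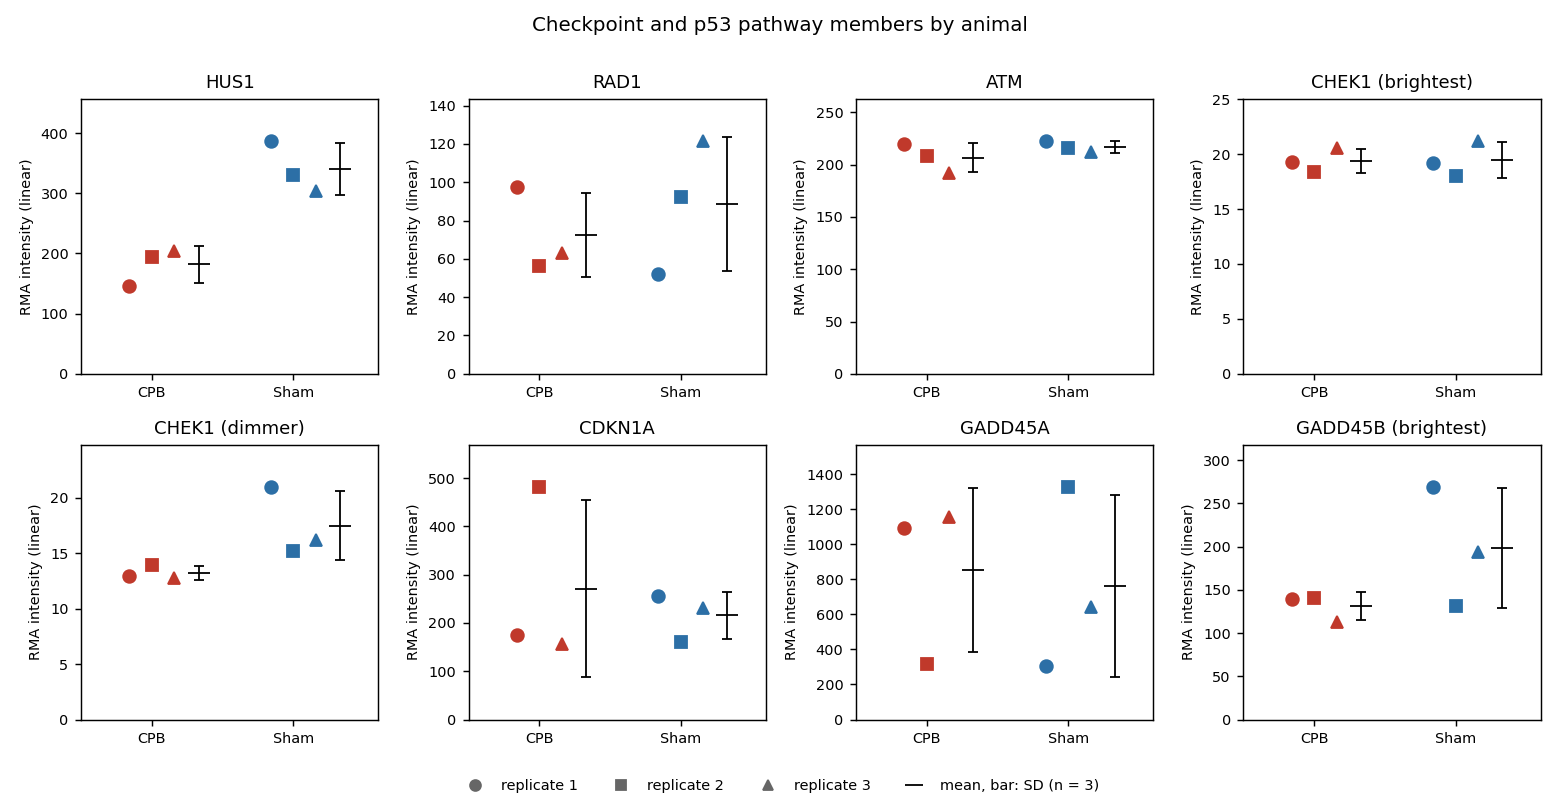
RMA intensity on the linear scale (vertical axes start at 0) of 7 checkpoint and p53 pathway genes on 8 probe sets in 3 CPB (left) and 3 Sham (right) animals, with marker shape for the replicate number and bars for the mean and SD. HUS1 and the dimmer CHEK1 probe set show CPB below Sham, while CDKN1A is highest in CPB 2 and GADD45A is low in CPB 2 and Sham 1.

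Among the p53 regulators and arrest genes, MDM2 and MDM4, which restrain p53, had no probe set, and 4 of 6 genes were measured. CDKN1A, the p21 inhibitor of cyclin-dependent kinases and the most used readout of p53 activity, had intensities of 174, 482 and 155 in CPB 1, 2 and 3, against 256, 161 and 231 in Sham 1, 2 and 3. CPB 2 alone stood above every Sham animal, and the other CPB animals lay within or below the Sham range. The log2 difference of 0.15 (SE 0.46) had an interval of -0.98 to 1.28. Without CPB 2 it was -0.36 (unadjusted p = 0.174 from limma). With the mean of the proximal tubule markers as a covariate it was 0.46 (unadjusted p = 0.086 from limma), so its sign depended on the fit.

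GADD45A, a stress protein that binds PCNA and p21, varied more between animals of a group than 97% of all probe sets. It had intensities of 1093, 315 and 1155 in CPB 1, 2 and 3, against 308, 1328 and 644 in Sham 1, 2 and 3. Both groups spanned nearly the same range, and the difference was 0.20 (SE 0.71, 95% interval -1.53 to 1.93). The low arrays, CPB 2 and Sham 1, were also the lowest in proximal tubule markers. With the mean of those markers as a covariate the difference turned to -0.33 (unadjusted p = 0.027 from limma, in a fit where 2.53% of all probe sets were under 0.05). The cause of this turn was not tested.

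GADD45B, a paralogue induced by stress and inflammatory signals, had a lower mean in CPB on both of its probe sets. On the brighter one the intensities were 139.9, 140.4 and 112 in CPB 1, 2 and 3, against 269, 131 and 194 in Sham 1, 2 and 3. Sham 2 lay below CPB 1 and CPB 2, so the groups overlapped. The differences were -0.55 (SE 0.28) and -0.62 (SE 0.27), with unadjusted p = 0.095 and 0.060 from limma. Without Sham 2 they were -0.81 and -0.90, with unadjusted p = 0.011 and 0.0038, in a fit where 9.24% of all probe sets passed 0.05. Without Sham 1 they were -0.29 and -0.53, with unadjusted p = 0.253 and 0.157 from limma. Without Sham 3 they were -0.53 and -0.44, with unadjusted p = 0.180 and 0.175 from limma. GADD45G, the third of these paralogues, had intensities of 249, 218 and 328 in CPB 1, 2 and 3 and 243, 212 and 231 in Sham 1, 2 and 3, a difference of 0.19 (SE 0.18) in the other direction.

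The BCL2 family decides whether the outer mitochondrial membrane is opened in apoptosis. BBC3, the p53 target also called PUMA, and BCL2 had no probe set, and the mean was higher in CPB for 6 of 8 measured genes (median log2 difference 0.064). None passed an unadjusted p of 0.05. BCL2L1, which encodes the survival protein BCL-XL, had its CPB animals above its Sham animals on both probe sets. The brighter gave 76.3, 78.6 and 80.8 in CPB 1, 2 and 3, against 61.5, 73.0 and 72.6 in Sham 1, 2 and 3. The dimmer gave 41.1, 46.5 and 44.6 in CPB 1, 2 and 3, against 38.3, 39.2 and 30.6 in Sham 1, 2 and 3. The differences were small, at 0.19 (SE 0.12) and 0.30 (SE 0.14), with unadjusted p = 0.155 and 0.077 from limma, and these 2 were the only probe sets of the 47 on which CPB lay wholly above Sham. Both probe sets carry the same root name, so they are not independent readings.

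BID, which links the death receptor path to the mitochondria, had the largest positive difference of the 35 genes. Its intensities on the brighter probe set were 418, 319 and 467 in CPB 1, 2 and 3, against 254, 416 and 252 in Sham 1, 2 and 3. Sham 2 stood with CPB 1 and CPB 3, and CPB 2 was nearer to the other Sham animals, the same arrangement as in the proximal tubule markers. The difference was 0.41 (SE 0.25, unadjusted p = 0.158), and 0.48 (SE 0.33) on the other probe set. It was 0.65 and 0.78 without Sham 2 (unadjusted p = 0.022 and 0.035, from limma) and 0.26 and 0.27 with the proximal tubule covariate (unadjusted p = 0.169 and 0.180). Without Sham 1 it was 0.29 and 0.33, and without Sham 3 it was 0.29 and 0.34. Whether the cell mix had a part in the BID values was not tested.

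BAK1, which with BAX forms the pore in the membrane, had intensities of 39.4, 52.6 and 42.9 in CPB 1, 2 and 3, against 40.4, 36.2 and 35.4 in Sham 1, 2 and 3. CPB 1 lay below Sham 1, and the difference was 0.26 (SE 0.15, unadjusted p = 0.126), with 0.11 (SE 0.13) on a dimmer probe set. With the proximal tubule covariate it was 0.33 on the brighter one (unadjusted p = 0.035 from limma). BAX itself, a direct p53 target, had intensities of 43.0, 42.3 and 40.4 in CPB 1, 2 and 3 and 40.3, 36.9 and 45.3 in Sham 1, 2 and 3. Its difference was 0.041 (SE 0.12) with an interval of -0.25 to 0.33.

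MCL1, a survival protein with a rapid turnover, was the brightest of the family, at 1729, 1320 and 1414 in CPB 1, 2 and 3 and 1427, 1379 and 1525 in Sham 1, 2 and 3, and its difference of 0.035 (SE 0.14) had an interval of -0.30 to 0.37. BCL2L11, the BH3-only protein BIM, differed by 0.087 (SE 0.16) and 0.25 (SE 0.19) on its probe sets. The genes with a lower mean in CPB were PMAIP1, the p53 target NOXA, at -0.27 (SE 0.21), and BAD, which binds BCL-XL, at -0.017 (SE 0.32). BAD had intensities of 197, 397 and 176 in CPB 1, 2 and 3 and 261, 212 and 258 in Sham 1, 2 and 3. As for CDKN1A, CPB 2 stood above all Sham animals and CPB 3 below them.

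**Figure D3:**
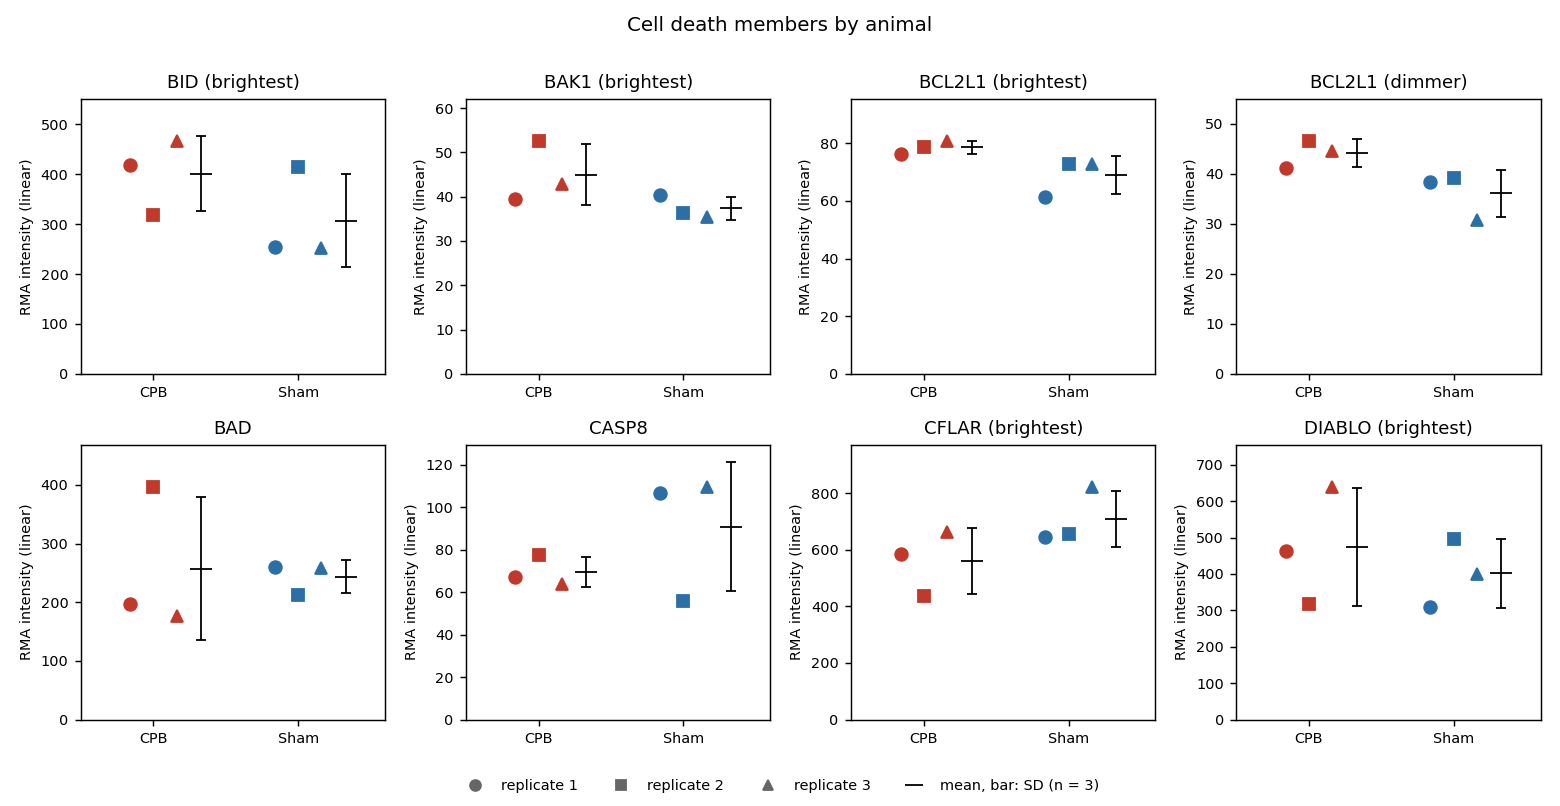
RMA intensity on the linear scale (vertical axes start at 0) of 7 cell death genes on 8 probe sets in 3 CPB (left) and 3 Sham (right) animals, with marker shape for the replicate number and bars for the mean and SD. CPB lies above Sham on both BCL2L1 probe sets, and the groups overlap in the other panels.

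Of the death receptor and caspase genes, 6 of 9 were measured, 4 of them with a mean lower in CPB than in Sham. Their median log2 difference was -0.094, and 0.13 without Sham 3, the array with the highest intensity of FAS, CASP6, CASP8 and CFLAR. CFLAR, which encodes FLIP, the inhibitor of caspase 8 at the receptor, had intensities of 583, 435 and 662 in CPB 1, 2 and 3, against 646, 657 and 823 in Sham 1, 2 and 3. CPB 3 lay above Sham 1 and Sham 2, and the difference was -0.35 (SE 0.20, unadjusted p = 0.123), with -0.23 (SE 0.21) on the other probe set. It was -0.18 without CPB 2, which had the lowest value, and -0.44 with the proximal tubule covariate (unadjusted p = 0.046 from limma).

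CASP8, the initiator caspase of the receptor path, had intensities of 67.2, 77.4 and 64.0 in CPB 1, 2 and 3, against 107, 55.6 and 109.6 in Sham 1, 2 and 3. Sham 2 was the lowest array of all, and Sham 1 and Sham 3 were the highest, so the difference of -0.32 (SE 0.28, unadjusted p = 0.301) had an interval of -1.02 to 0.37. Without Sham 2 it was -0.64 (unadjusted p = 0.00469 from limma, against 9.24% of all probe sets under 0.05). Without Sham 1 it was -0.17 and without Sham 3 -0.15 (unadjusted p = 0.609 and 0.641 from limma). With the proximal tubule covariate it was -0.18 (unadjusted p = 0.460 from limma). FAS, the receptor itself and a p53 target, was dim, with intensities between 16.5 and 24.0 in CPB and between 15.2 and 27.1 in Sham, and its difference was -0.013 (SE 0.27).

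CASP2, a caspase linked to DNA damage, had intensities of 222, 216 and 217 in CPB 1, 2 and 3, against 184, 222 and 212 in Sham 1, 2 and 3, and its difference was 0.089 (SE 0.12). The executioner CASP6 had a difference of -0.18 (SE 0.32), with Sham 3 at 633 and the other 5 arrays between 292 and 446. DIABLO, released by mitochondria to block XIAP, had a difference of 0.21 (SE 0.30), with intensities of 464, 318 and 640 in CPB 1, 2 and 3 and 309, 497 and 399 in Sham 1, 2 and 3. This order is close to that of the proximal tubule markers, and with their mean as a covariate the DIABLO difference was 0.0042. The difference without the covariate was already smaller than its SE, and the part of the cell mix in it was not tested.

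Genes of break repair, replication and cohesin had lower means in CPB for 7 of the 8 measured of 10, with a median log2 difference of -0.16, and none passed an unadjusted p of 0.05. MRE11, the nuclease that trims broken ends together with RAD50 and NBN, had the second largest difference of the 47 probe sets. Its intensities were 37.9, 81.0 and 47.4 in CPB 1, 2 and 3, against 114, 41.6 and 135 in Sham 1, 2 and 3. Sham 2 lay within the CPB range, and the difference of -0.71 (SE 0.51, unadjusted p = 0.215) had an interval of -1.97 to 0.54. Without Sham 2 it was -1.23 (unadjusted p = 0.019 from limma, against 9.24% of all probe sets under 0.05), and with the proximal tubule covariate -0.41. Without Sham 1 it was -0.51 and without Sham 3 -0.39 (unadjusted p = 0.431 and 0.510 from limma). RAD50, its partner, was far steadier, at 689, 524 and 701 in CPB 1, 2 and 3 and 633, 646 and 629 in Sham 1, 2 and 3, with a difference of -0.0078 (SE 0.15).

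RAD21, the cohesin subunit that holds sister chromatids together, had intensities of 1045, 909 and 887 in CPB 1, 2 and 3, against 1366, 929.6 and 1240.0 in Sham 1, 2 and 3. PCNA, the sliding clamp of replication and repair, had 219, 208.8 and 254 in CPB 1, 2 and 3, against 309.6, 208.5 and 334 in Sham 1, 2 and 3. In both genes Sham 1 and Sham 3 were the highest arrays, while Sham 2 lay among the CPB animals in RAD21 and just below them in PCNA. The differences were -0.30 (SE 0.18, unadjusted p = 0.138) for RAD21 and -0.30 (SE 0.21, unadjusted p = 0.203) for PCNA, and without Sham 2 they were -0.46 and -0.50 (unadjusted p = 0.017 and 0.014 from limma, in the fit with 9.24% of all probe sets under 0.05). Without Sham 1 they were -0.18 and -0.22 (unadjusted p = 0.362 and 0.410 from limma). Without Sham 3 they were -0.25 and -0.17 (unadjusted p = 0.283 and 0.485 from limma).

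XRCC4, which guides the ligase in end joining, had intensities of 68.4, 63.2 and 93.6 in CPB 1, 2 and 3, against 114, 91.2 and 77.9 in Sham 1, 2 and 3. CPB 3 lay inside the Sham range, and the difference was -0.33 (SE 0.21). The Ku subunits XRCC5 and XRCC6, which bind the ends first, differed by -0.027 (SE 0.14) and -0.014 (SE 0.22). BRCA1, of homologous recombination, was the gene of this group with a higher mean in CPB, by 0.034 (SE 0.18), and BRCA2 and NBN had no probe set.

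**Figure D4:**
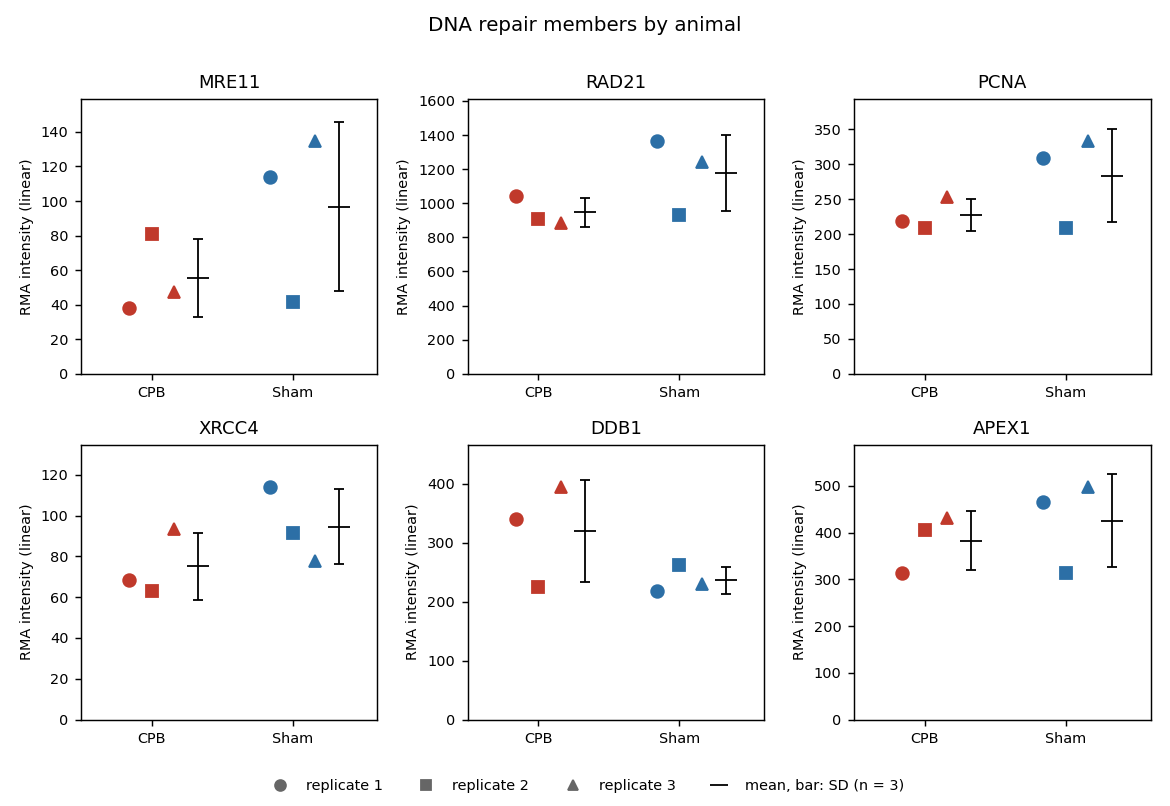
RMA intensity on the linear scale (vertical axes start at 0) of 6 DNA repair genes in 3 CPB (left) and 3 Sham (right) animals, with marker shape for the replicate number and bars for the mean and SD. In MRE11, RAD21, PCNA and APEX1 Sham 1 and Sham 3 are the highest arrays and Sham 2 lies lower, and in DDB1 CPB 1 and CPB 3 are the highest.

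Excision and mismatch repair was covered by 4 of 11 genes, since XRCC1, RAD23B, MSH6, OGG1, UNG, PARP1 and ERCC2 had no probe set. DDB1 and DDB2 form the complex that finds ultraviolet lesions in chromatin. DDB1 had intensities of 341, 225 and 395 in CPB 1, 2 and 3, against 218, 262 and 231 in Sham 1, 2 and 3. CPB 2 lay among the Sham animals, the difference was 0.40 (SE 0.23, unadjusted p = 0.131), and without CPB 2 it was 0.64 (unadjusted p = 0.00747 from limma, against 5.03% of all probe sets under 0.05). Without CPB 1 it was 0.34 and without CPB 3 0.23 (unadjusted p = 0.280 and 0.353 from limma). CPB 2 was the CPB array low in proximal tubule markers. With their mean as a covariate the DDB1 difference was 0.26 (unadjusted p = 0.128 from limma), and the part of the cell mix in it was not tested.

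DDB2, a p53 target in human cells, was read by 3 probe sets, and it was the only one of 11 genes with more than 1 probe set whose probe sets differed in sign. On the middle one the intensities were 59.1, 53.1 and 56.8 in CPB 1, 2 and 3, against 85.0, 65.1 and 60.4 in Sham 1, 2 and 3, with all CPB animals below all Sham animals. That difference was -0.30 (SE 0.16, unadjusted p = 0.106), while the brightest and the dimmest probe sets differed by 0.0054 (SE 0.13) and 0.017 (SE 0.0997). The dimmest was steadier between animals than 99% of all probe sets, with an interval of -0.23 to 0.26.

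APEX1, the endonuclease of base excision repair, had intensities of 313, 406 and 430.4 in CPB 1, 2 and 3, against 466, 313 and 498 in Sham 1, 2 and 3, and its difference was -0.14 (SE 0.23). ERCC1, the partner of the XPF nuclease in nucleotide excision, had intensities of 195, 245 and 209 in CPB 1, 2 and 3 and 226, 225 and 205 in Sham 1, 2 and 3. Its difference of -0.019 (SE 0.13) had an interval of -0.33 to 0.30.

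Set side by side, the role groups stayed between -0.15 and 0.35 on every array in their centred mean, in which the log2 intensity of each gene is taken relative to its average on the 6 arrays. The checkpoint group was at -0.094, -0.15 and -0.12 in CPB 1, 2 and 3, against 0.046, 0.10 and 0.21 in Sham 1, 2 and 3. It holds HUS1, which was picked on this contrast, so its order is a description only, and its median difference of -0.070 is that of ATM. The break repair group was at -0.13, -0.073 and -0.10 in CPB 1, 2 and 3, against 0.27, -0.061 and 0.099 in Sham 1, 2 and 3, with Sham 2 only just above the CPB arrays.

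The BCL2 family was at -0.0061, 0.14 and 0.00013 in CPB 1, 2 and 3, against -0.053, -0.030 and -0.055 in Sham 1, 2 and 3. Its CPB and Sham arrays did not overlap, as in the checkpoint and break repair groups. With 3 arrays per group, labels given at random separate in this way with a probability of 0.1. CPB 1 and CPB 3 lay close to the Sham arrays and CPB 2, low in proximal tubule markers, stood apart. The p53 regulators and arrest genes lay between -0.085 and 0.043 in CPB and between -0.048 and 0.045 in Sham. The receptor and caspase genes lay between -0.12 and 0.087 in CPB and between -0.13 and 0.35 in Sham, with Sham 3 the highest. The 4 excision repair genes lay between -0.046 and 0.14 in CPB and between -0.040 and -0.016 in Sham.

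**Figure D5:**
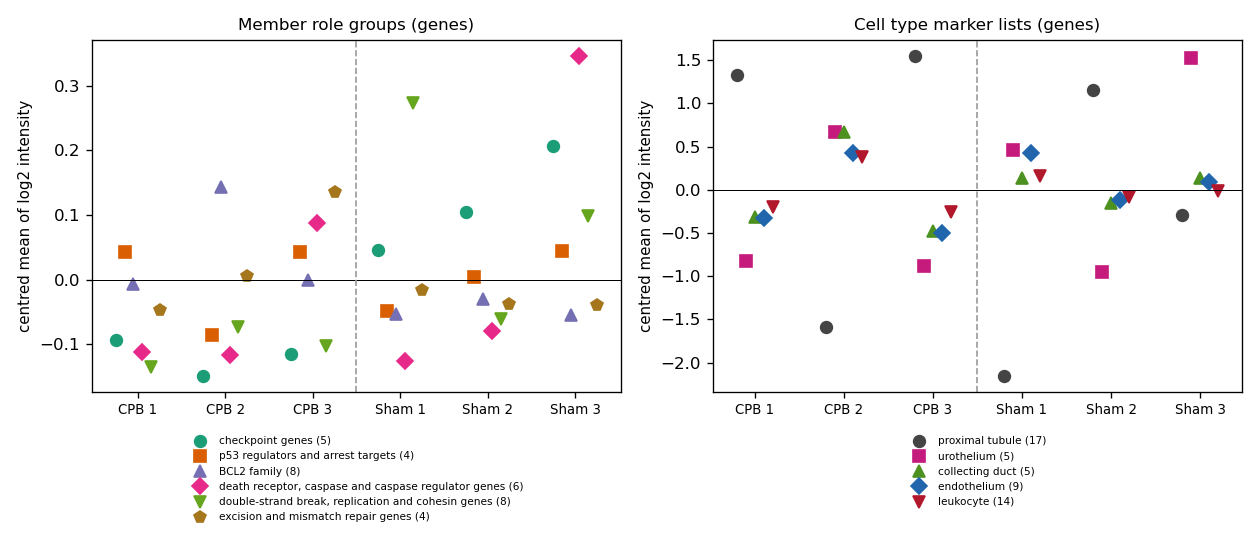
Mean log2 intensity of the role groups (left) and of cell type marker lists (right) by array, each gene taken relative to its own 6-array average, with the number of genes in brackets and a dashed line between CPB and Sham. The vertical scales differ. Proximal tubule markers run between -2.15 in Sham 1 and 1.55 in CPB 3, while the role groups stay between -0.15 and 0.35.

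The highest and lowest values were spread over all 6 arrays. Sham 3 had the highest intensity for 13 of the 47 probe sets (27.7%) and CPB 3 for 11 (23.4%), while CPB 1 had it for 2 (4.26%). Over all 23999 probe sets the counts were 3439 for Sham 3 (14.3%), 5746 for CPB 3 (23.9%) and 2138 for CPB 1 (8.91%). The share of Sham 3 was thus higher among the 47, and that of CPB 1 lower. Sham 1 had the lowest intensity for 11 of the 47 (23.4%), against 22.0% of all probe sets. The median residual SD within groups was 0.26 on the log2 scale over the 47 probe sets and 0.22 over all probe sets, so the listed genes were not measured more tightly than others, and the median half-width of their 95% intervals was 0.48. GADD45A, MRE11 and CDKN1A had the widest spread of the 35 genes. The part of the mix of tubule and urothelial cells in these spreads was not tested.

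Other genes of the same pathways, which are not on the list of 54, gave similar counts. Of 25 further p53 pathway genes 16 were measured on 20 probe sets, and 0 passed an unadjusted p of 0.05 from limma, with a median log2 difference of -0.12. Of 28 further cell death genes 12 were measured on 17 probe sets, and 1 passed, BNIP3L, a mitochondrial protein of mitophagy, with intensities of 159, 164 and 184 in CPB 1, 2 and 3, against 267, 183 and 323 in Sham 1, 2 and 3. Its difference was -0.57 (SE 0.22, unadjusted p = 0.043 from limma) on this dimmer probe set. On the brighter probe set it was -0.45 (SE 0.22, unadjusted p = 0.088), which did not pass. Of 47 further repair genes 18 were measured on 27 probe sets, and 1 passed, NEIL1, a glycosylase that removes oxidised bases. NEIL1 had intensities of 491, 370.4 and 544 in CPB 1, 2 and 3, against 311, 398 and 282 in Sham 1, 2 and 3, a difference of 0.50 (SE 0.20, unadjusted p = 0.049), and 0.34 and 0.33 on its other probe sets, which did not pass. The groups overlapped in BNIP3L and in NEIL1, and the adjusted p of both was 0.995. These counts of 0 of 20, 1 of 17 and 1 of 27 stand beside the 1.4% of all probe sets that passed in either direction.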

How the data were processed

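RNA of renal medulla from 6 pigs, 3 CPB and 3 Sham, was hybridised to Affymetrix porcine arrays, 1 for each. GCOS was used by the authors for quality reports and RMA in ArrayStar for normalisation (background correction, quantile normalization, median polish), a step that the submitters' processing notes also name. The deposited values are intensities for 24123 probe sets, read as linear from their size, and log2 was taken. No genome build is named, so no positions are given. The small number of arrays limits the precision.

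The 124 control probe sets were left out, and 23999 were compared with limma 3.58.1 in R 4.3.3 (lmFit, eBayes, group as the only term, Benjamini-Hochberg over all genes on the array). The annotation gives 10099 probe sets 1 symbol and 198 several, and probe sets with several named no gene. The genes RAD9A, RAD17, ATR, MDM2, MDM4, BBC3, BCL2, CASP9, APAF1, XIAP, XRCC1, RAD23B, NBN, BRCA2, MSH6, OGG1, UNG, PARP1 and ERCC2, 19 in all, matched none and were not analysed here.

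Members, role groups and marker lists were chosen with earlier results of these data known. Full values follow a rule: HUS1, genes with a probe set at an unadjusted p under 0.05, and per role group the 3 genes with the smallest p and the brightest gene. MRE11, BAD, BAX, RAD50, DDB2, CASP6, FAS, DIABLO, BNIP3L and NEIL1 were added after their values were seen, and the remaining members are given by their difference. Alternatives were the methods' t-test, limma with a trend and robust prior, array weights, other normalizations, filters, a replicate block, arrays left out, a proximal tubule covariate, other fold minimums and the mean over a gene's probe sets.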

Additional observations from a re-analysis of the deposited data

How the results depend on the processing

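Counts here include HUS1, which was picked on these arrays, so its passing in these fits is no test of it. HUS1 adds 1 to each count other than that at a fold minimum of 2 and those of adjusted p. The count of 2 probe sets at an unadjusted p under 0.05 became 1 with the methods' t-test on log2 or on linear values, with a second quantile normalization and without the dim probe sets, 5 with the proximal tubule covariate, 12 with array weights and 16 without both Sham 2 and CPB 2, and it ran between 1 and 10 with each array left out in turn. Over all probe sets the t-test on log2 values gave 499 at an unadjusted p under 0.05, 30 at the study's threshold and 0 after Benjamini-Hochberg adjustment. The share of all probe sets that passed was 22.9% with array weights, whose estimation stopped before it converged, and 23.4% without Sham 2 and CPB 2. The 1 probe set at the study's threshold became 3 with array weights (8.82% of all probe sets), 9 without Sham 2 and CPB 2 (12.8% of all) and 0 at a fold minimum of 2, and ran between 1 and 5 with single arrays left out, the 5 without Sham 2 (2.92% of all). Without Sham 2 and CPB 2, 2 probe sets passed the adjusted p, MRE11 at -1.55 and BID at 1.01 on its dimmer probe set, and so did 719 of all 23999. The proximal tubule means then left are 1.32 and 1.55 in CPB against -2.15 and -0.29 in Sham. In that fit CDKN1A was -0.56, and with the covariate GADD45A was -0.33, both opposite in sign to their differences in the report. The cause was not tested.

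Of the role group medians 94 of 108 moved by less than 1 SD between arrays. This count includes settings in which no median could move, since they leave every difference unchanged. They are the t-test on log2 values, the trend and robust prior, the control probe sets kept and the replicate block. The checkpoint median was -0.16 without dim probe sets and -0.20 with the mean over a gene's probe sets, and ran between -0.12 and 0.021 with single arrays left out. That of the p53 regulators and arrest genes was -0.11 with array weights, -0.088 with the covariate and -0.15 without Sham 2 and CPB 2, and ran between -0.049 and 0.20. The other ranges with single arrays left out were 0.035 to 0.15 for the BCL2 family, -0.21 to 0.13 for the receptor and caspase genes, -0.21 to -0.10 for break repair, -0.10 being without Sham 1, and -0.074 to 0.053 for excision repair. Of 777 values of single probe sets other than HUS1, 731 stayed on their side of an unadjusted p of 0.05, and 67 had another sign. In the settings that leave every difference unchanged the sign could not change.

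The labels do not say that the replicate numbers pair the animals. Deviations of same-numbered CPB and Sham arrays correlated at -0.39, -0.68 and -0.016, and each CPB array correlated best with a Sham array of another number. These correlations run over all probe sets and include differences in cell mix. They cannot decide whether same-numbered animals shared a day or a batch. With the replicate block 2 probe sets passed an unadjusted p of 0.05, HUS1 and the dimmer GADD45B probe set, and 268 of all.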
